A study of Mus musculus with 5 samples.

Results

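The genes described here are the mouse keratin and keratin-associated protein genes, 108 of the 21779 protein-coding genes placed on chromosomes 1 to 19, X and Y. They were chosen by symbol from the RefSeq annotation of GRCm38.p6, the assembly behind mm10: every protein-coding gene called Krt plus a number or starting with Krtap, without Krt20. The set holds 52 keratin genes and 56 keratin-associated protein genes, with 49 members on chromosome 11, 26 on chromosome 15, 24 on chromosome 16, 5 on chromosome 7, 3 on chromosome 10 and 1 on chromosome 1.

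The series holds 5 chromatin immunoprecipitation sequencing libraries of NIH3T3 cells, a mouse embryonic fibroblast line, made to map CTCF. All cells carried H2B-mCherry, the rtTA3G transactivator and CDX2, an intestinal and trophectodermal homeobox factor, under the doxycycline-controlled TRE3G promoter. An antibody to CTCF was used for 2 libraries of doxycycline-treated cells (6 h, labelled 500 ng/µL) and for 2 of untreated cells, and the remaining 1 is an untreated input. The sources used here do not say whether the line is a single clone. The data are 1 list of 22756 peak intervals in which the authors merged both conditions, so each member has 1 position-based value and no value per sample. The effect of doxycycline on these genes was therefore not tested, there is no spread between replicates, the labelled cell type cannot be checked against marker levels, and read depth at the peaks is unknown. A peak was counted for a gene when its midpoint lay in the gene body or within 10 kb of either end.

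Keratins are the intermediate filament proteins of epithelia. A type I and a type II chain pair to form the filament, and different pairs mark simple epithelia, the layers of stratified epithelia, and the hair follicle. Keratin-associated proteins crosslink keratin filaments in the hair shaft. Type I genes, together with many keratin-associated protein genes, sit in an array on mouse chromosome 11, type II genes in an array on chromosome 15, and further keratin-associated protein genes on chromosome 16. Fibroblasts are not the usual site of expression of either family. CTCF is a zinc finger protein that stops cohesin-driven chromatin loops and often lies at the borders of chromatin domains.

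Promoter sequences from 250 bases before to 50 bases after the gene start were available from RefSeq (GRCm38.p6) for 86 of the 108 members, as 87 windows of 300 bases. They are shown for 4 members. Krt72, a type II keratin of the inner root sheath of the hair follicle, was the member of these 86 whose window touched a peak, and the capitals mark its last 5 bases, which lie in the peak. Krt42, a type I keratin, and the hair-shaft genes Krtap5-1 and Krtap5-4 carried AGGGGGC, the core of the CTCF motif, and the capitals mark it. The windows are Krt72 at chr15:101786471-101786770, Krt42 at chr11:100269902-100270201 and Krtap5-1 at chr7:142297085-142297384, all on the minus strand, and Krtap5-4 at chr7:142303252-142303551 on the plus strand, each written 5′ to 3′ on the sense strand:
Krt72: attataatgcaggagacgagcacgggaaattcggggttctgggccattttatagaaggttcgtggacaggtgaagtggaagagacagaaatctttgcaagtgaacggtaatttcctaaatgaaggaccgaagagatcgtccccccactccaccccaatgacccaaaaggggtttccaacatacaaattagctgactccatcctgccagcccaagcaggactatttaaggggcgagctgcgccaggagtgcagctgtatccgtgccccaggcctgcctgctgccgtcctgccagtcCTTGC
Krt42: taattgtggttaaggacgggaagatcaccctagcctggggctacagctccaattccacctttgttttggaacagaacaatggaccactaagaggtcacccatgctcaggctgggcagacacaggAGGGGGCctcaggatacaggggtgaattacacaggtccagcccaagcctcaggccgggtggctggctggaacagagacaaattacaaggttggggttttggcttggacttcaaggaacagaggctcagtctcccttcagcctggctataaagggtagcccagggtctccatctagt
Krtap5-1: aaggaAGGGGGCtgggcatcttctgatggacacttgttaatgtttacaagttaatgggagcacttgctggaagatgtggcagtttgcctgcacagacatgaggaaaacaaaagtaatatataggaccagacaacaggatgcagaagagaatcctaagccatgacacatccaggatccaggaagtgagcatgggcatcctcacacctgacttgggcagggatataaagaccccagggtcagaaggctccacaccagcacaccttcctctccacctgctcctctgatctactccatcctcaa
Krtap5-4: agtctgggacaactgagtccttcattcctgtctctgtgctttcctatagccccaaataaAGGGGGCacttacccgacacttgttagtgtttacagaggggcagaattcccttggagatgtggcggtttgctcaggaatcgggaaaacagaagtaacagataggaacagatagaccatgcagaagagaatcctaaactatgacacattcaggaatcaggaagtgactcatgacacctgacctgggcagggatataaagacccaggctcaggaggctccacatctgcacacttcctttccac

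At Krt72 the peak itself, 343 bp at 101786133 to 101786475, had its midpoint 216 bp downstream of the start, and all of it lay within the gene. AGGGGGC began 126 bases before the start of Krt42, 245 before that of Krtap5-1 and 191 before that of Krtap5-4. None of these 3 promoters held a peak: the nearest midpoint lay 7123 bp downstream of the start of Krt42 and 3099 bp downstream of that of Krtap5-1, and 9467 bp upstream of that of Krtap5-4. The motif was searched on both strands and was found in 5 of the 87 member promoters (5.75%), against 17 of 120 promoters of neighbouring genes (14.2%) and 2746 of 21263 promoters of protein-coding genes (12.9%). The other members with it were Krtap4-1 and Krtap16-1. Counting AGGTGGC as well raised the members to 10 of 87 (11.5%), beside 18.2% of all promoters. A match is a description of the letters, not a binding site.

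Member promoters were also poorer in G and C. Their median GC content was 44.3% (quartiles 40.7 and 48.7%), with a median of 3 CG dinucleotides per window. Promoters of neighbouring genes had a median of 60.7% GC and 19 CG dinucleotides, and all protein-coding promoters 56.3% and 13. Within the family the keratin promoters stood at 48.5% GC and the keratin-associated ones at 41.3%. Krt7 and Krt18, keratins of simple epithelia, had the most CG dinucleotides of the members, 21 and 17, and neither promoter window held a peak. Peaks within 1 kb of an annotated start were found for 1 of the 87 member windows (1.15%), 18 of 120 neighbouring windows and 7.61% of all.

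CTCF peaks were fewer at keratin and keratin-associated genes than at the genes around their clusters on chromosomes 11, 15 and 16. Of the 108 members, 36 (33.3%) had 1 peak or more inside the gene or up to 10 kb away, while 86.8% of the 144 other protein-coding genes within 1 Mb of the clusters on chromosomes 11, 15 and 16 did. The same held for 67.8% of all other protein-coding genes of those 3 chromosomes and for 50.8% of all protein-coding genes. Members had 0.509 peaks each on average and neighbours 2.06, with medians of 0 and 2. Of the 99 members in the clusters on chromosomes 11, 15 and 16, 31 (31.3%) had a peak. The shares of members and neighbours with a peak were 34.7 and 91.0% on chromosome 11, and 46.2 and 87.9% on chromosome 15. On chromosome 16 they were 8.33 and 37.5%, with 8 neighbours. On chromosome 7 they were near each other, at 60.0% of 5 members and 63.6% of 55 neighbours. A total of 72 members had no peak, 25 had 1, 7 had 2, 2 had 3, 1 had 4 and 1 had 6. Among peaks of 262 bp (the median width) or wider, 21 members had one, and none lay in the chromosome 16 cluster. Other genes were not counted at that width. These shares have no test, because neighbouring genes share peaks and are not independent.

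The gap was also seen among short genes. Members are short, with a median length of 1.61 kb against 13.5 kb for the neighbours. Among genes of 10 kb or shorter, a limit added after seeing the data, 29 of 97 members (29.9%) and 50 of 60 neighbours (83.3%) had a peak. The median lengths of these sets still differed, at 1.13 and 5.21 kb. Of the 41 keratin genes within the limit, with a median of 6.24 kb, 17 (41.5%) had a peak. Short genes elsewhere were not counted. Over the joined windows of each set, which removes double counting, members held 41 distinct peaks in 1931 kb or 2.12 per 100 kb. Neighbours on chromosomes 11, 15 and 16 held 178 in 4652 kb or 3.83 per 100 kb, and all protein-coding genes 1.27 per 100 kb. By chromosome, members and neighbours stood at 2.26 and 5.17 per 100 kb on chromosome 11 and at 3.06 and 4.5 on chromosome 15. The values were close on chromosome 16, at 0.482 and 0.54, and on chromosome 7, at 2.16 and 2.23.

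Keratin genes and keratin-associated protein genes differed from each other in these counts. Of the 52 keratin genes, 24 (46.2%) had a peak, with 32 distinct peaks at 3.04 per 100 kb. Of all protein-coding genes 50.8% did, near that share, at 1.27 per 100 kb. Of the 56 keratin-associated genes, 12 (21.4%) did, with 9 distinct peaks at 1.01 per 100 kb and never more than 1 peak at a gene. The type I and type II keratins were alike in count, with a peak at 13 of 27 and 11 of 25. By class, 4 of 7 inner root sheath keratins, 3 of 6 simple epithelial keratins, 11 of 22 keratins of stratified epithelia and 4 of 15 hair keratins had a peak, and so did both remaining keratins, Krt222 and Krt88. Of the keratin-associated genes, 5 of 23 on chromosome 11, 2 of 24 on chromosome 16, 3 of 5 on chromosome 7 and 2 of 4 on chromosomes 1 and 10 had one. Class sizes are small and no difference between classes was tested.

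**Figure D1:**
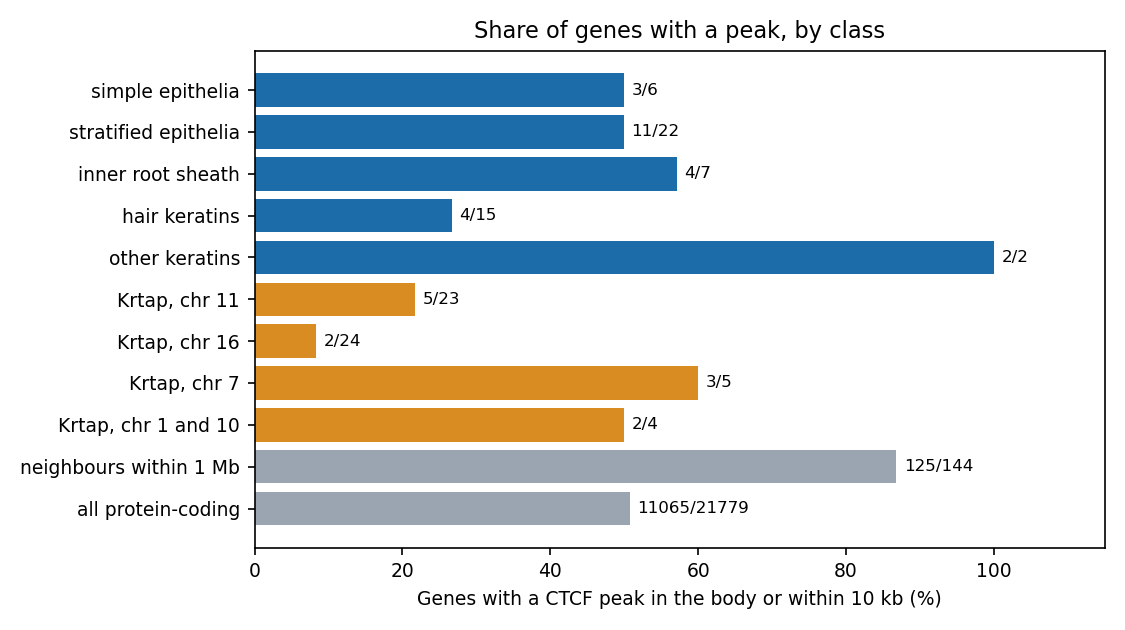
Bars give the percentage of genes with a CTCF peak in the body or within 10 kb, by keratin class (blue), keratin-associated genes by chromosome (orange) and comparison genes (grey), with the counts beside each bar. The keratin-associated genes of chromosome 16 stand lowest at 2 of 24 and the neighbouring genes reach 125 of 144.

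Both clusters of keratins were as rich in peaks as, or richer than, their chromosome as a whole, but poorer than the 1 Mb on either side. A cluster was taken as a run of at least 5 members under 500 kb apart. On chromosome 11 the cluster ran from Krt222 to Krt42 (99232761 to 100269951, 1037 kb, 49 members) and held 23 peaks, 2.22 per 100 kb (exact Poisson 95% interval 1.41 to 3.33). The 1 Mb before it held 60 peaks or 6.0 per 100 kb (4.58 to 7.72) and the 1 Mb after it 53 or 5.3 (3.97 to 6.93), beside 2.13 per 100 kb over the chromosome. The ratio of the cluster to both sides was 0.392 (exact binomial 95% interval 0.239 to 0.619). The intervals cover only the counting of peaks and treat peaks as independent.

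On chromosome 15 the cluster ran from Krt80 to Krt18 (101348315 to 102032026, 684 kb, 26 members) and held 17 peaks, 2.49 per 100 kb (1.45 to 3.98). The side before it held 51 peaks (5.1 per 100 kb, 3.8 to 6.71) and the side after it 41 (4.1, 2.94 to 5.56), beside 1.34 per 100 kb over the chromosome. Its ratio to both sides was 0.541 (exact binomial 95% interval 0.302 to 0.913), and the interval of the cluster overlapped those of both sides.

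The cluster on chromosome 16 was nearly empty. It ran from Krtap24-1 to Krtap11-1 (88610709 to 89571183, 960 kb, 24 members) and held 2 peaks, 0.208 per 100 kb (0.0252 to 0.752), in a region that was sparse on both sides, with 8 peaks (0.8 per 100 kb) before it and 9 (0.9) after it, and 0.781 per 100 kb over the chromosome. The ratio to both sides was 0.245 with an exact binomial 95% interval of 0.0275 to 1.03, so at this number of peaks a difference from the sides was not detectable. Of its 8 neighbouring genes 3 had a peak (37.5%), against 91.0% of 78 beside the chromosome 11 cluster and 87.9% of 58 beside that of chromosome 15.

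**Figure D2:**
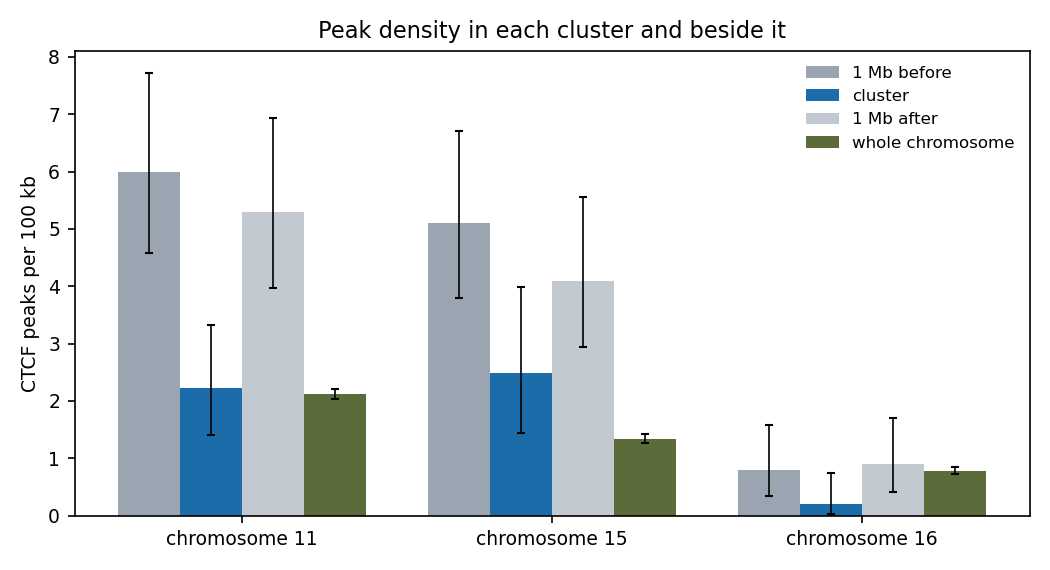
Bars give CTCF peaks per 100 kb in each cluster (blue), in the 1 Mb before and after it (greys) and over its chromosome (green), with exact Poisson 95% intervals. On chromosome 11 the cluster, at 2.22, lies below both sides at 6.0 and 5.3, and on chromosome 16 all bars are under 1.

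Peaks within the clusters were grouped, with long stretches of members between them. On chromosome 11 the array falls into 3 parts by gene family. The first, from Krt222 to Krt40, held 12 peaks over 11 members (3.87 per 100 kb). The keratin-associated part, from Krtap3-3 to Krtap17-1, held 4 over 23 members (0.901 per 100 kb), and the third, from Krt33a to Krt42, held 5 over 15 members (1.93 per 100 kb). The other 2 of the 23 peaks lay between the keratin-associated part and Krt33a, within 10 kb of Krt33a. The exact Poisson 95% intervals of the 3 parts were 2.0 to 6.75, 0.246 to 2.31 and 0.627 to 4.51. On chromosome 15 the stretch from Krt80 to Krt75 held 7 peaks over 11 members (3.1 per 100 kb), that from Krt6b to Krt79 held 2 over 12 members (0.757), and that from Krt78 to Krt18 held 7 over 3 members (8.14), with 1 more between Krt75 and Krt6b. The parts on chromosome 15 were drawn after the peaks were seen, so their contrast is a description only.

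**Figure D3:**
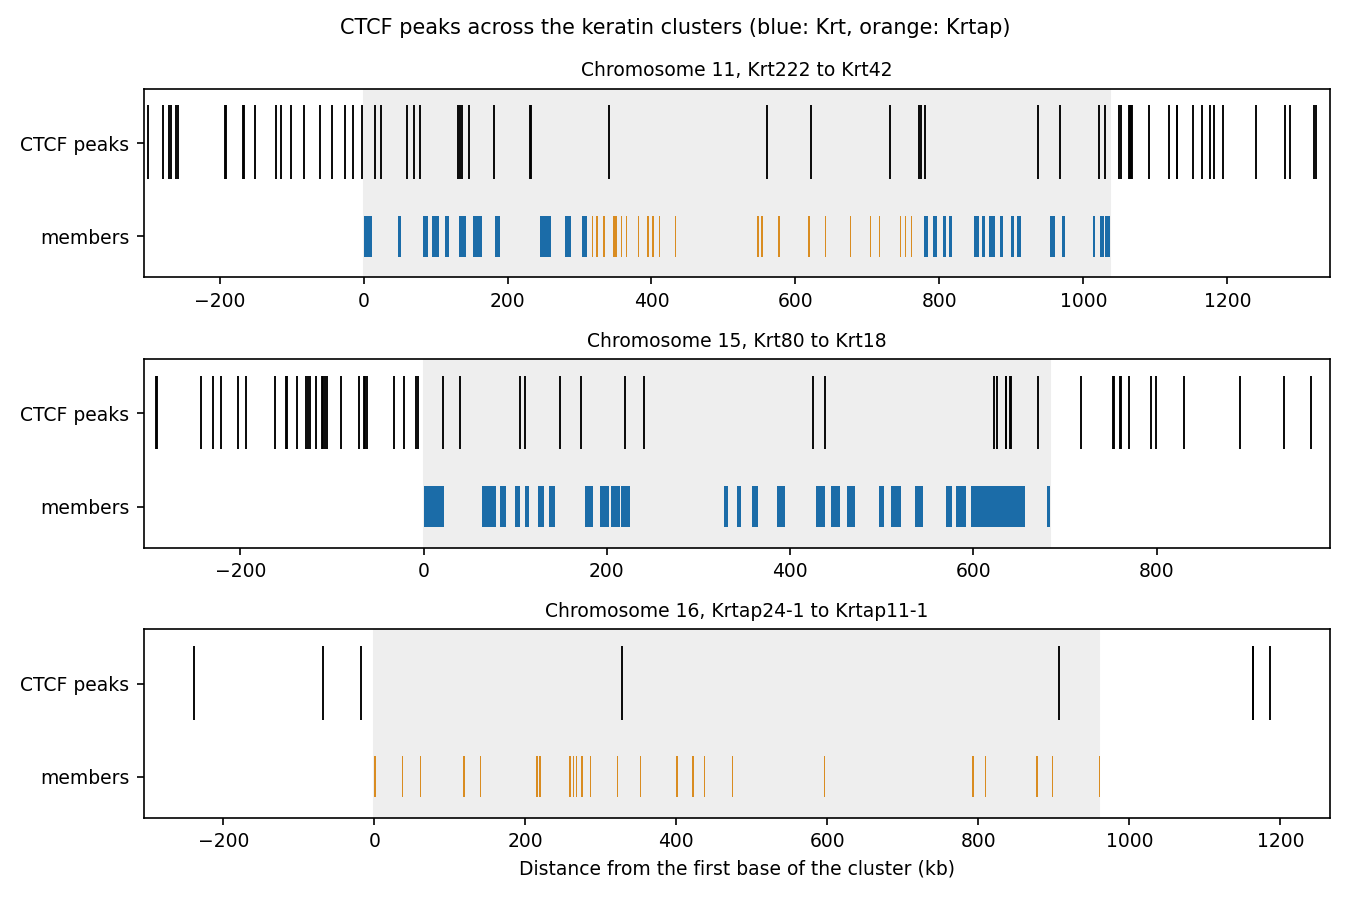
For each cluster the upper row gives CTCF peaks as vertical lines and the lower row the members (blue Krt, orange Krtap), against distance in kb from the first base of the cluster, whose span is shaded, with 300 kb on each side; the shortest genes are widened to 2 kb to be visible. Peaks crowd both sides of the chromosome 11 and 15 clusters and leave gaps of up to 219 and 184 kb inside, and 2 lines fall within the shaded span on chromosome 16.

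The longest stretches without a peak lay over whole groups of members. On chromosome 16, 579 kb between peaks covered 10 members from Krtap16-3 to Krtap7-1, and this was the gap ranked 30 of 742 between neighbouring peaks of that chromosome, whose median was 37.7 kb. A further 345 kb covered 13 members from Krtap24-1 to Krtap19-9b. On chromosome 11 the longest, 219 kb, covered 11 members from Krtap1-5 to Krtap4-9 (rank 78 of 2526, median 16.9 kb), and the next, 157 kb, covered the 9 members from Krt33b to Krt19, among them the hair keratins Krt31, Krt32, Krt34, Krt35 and Krt36. On chromosome 15, a gap of 184 kb covered Krt6b, Krt6a, Krt5 and Krt71, and another of 184 kb covered the 7 members from Krt73 to Krt79 (ranks 122 and 123 of 1355, median 23.2 kb). In all, 30 of 49 members on chromosome 11, 11 of 26 on chromosome 15 and 24 of 24 on chromosome 16 lay in gaps of more than 100 kb. Some of them, such as Krtap1-5 and Krt73, lay near the edge of a gap and had a peak within 10 kb. The share of other genes in such gaps was not counted, so whether these counts are unusual was not tested.

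Keratin-associated genes are families of similar short copies, in which reads of 37 nt can map to several places. How many reads were lost there was not tested, so a stretch without a peak is a stretch where none was called. Other protein-coding genes inside the clusters, most of them gene models named Gm, had a peak at 3 of 15 on chromosome 11 and 0 of 34 on chromosome 16. On chromosomes 15 and 7 the counts were 0 of 1 and 3 of 5. These genes lie in the same spans as the members, so their counts are not a separate case.

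The median distance from a member to the nearest peak was 23.2 kb (quartiles 7.04 and 55.2 kb), against 0.239 kb (0 and 5.09 kb) for the neighbours and 9.41 kb for all protein-coding genes. It was 13.2 kb for keratin genes and 30.6 kb for keratin-associated genes. On chromosome 16 it was 70.5 kb, and Krtap20-2 was farthest at 267 kb. At the 10 kb limit, Krtap7-1 (9.5 kb) and Krt18 (9.94 kb) lay just inside, and Krtap17-1 (11004 bp) and Krt33b (11170 bp) just outside.

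**Figure D4:**
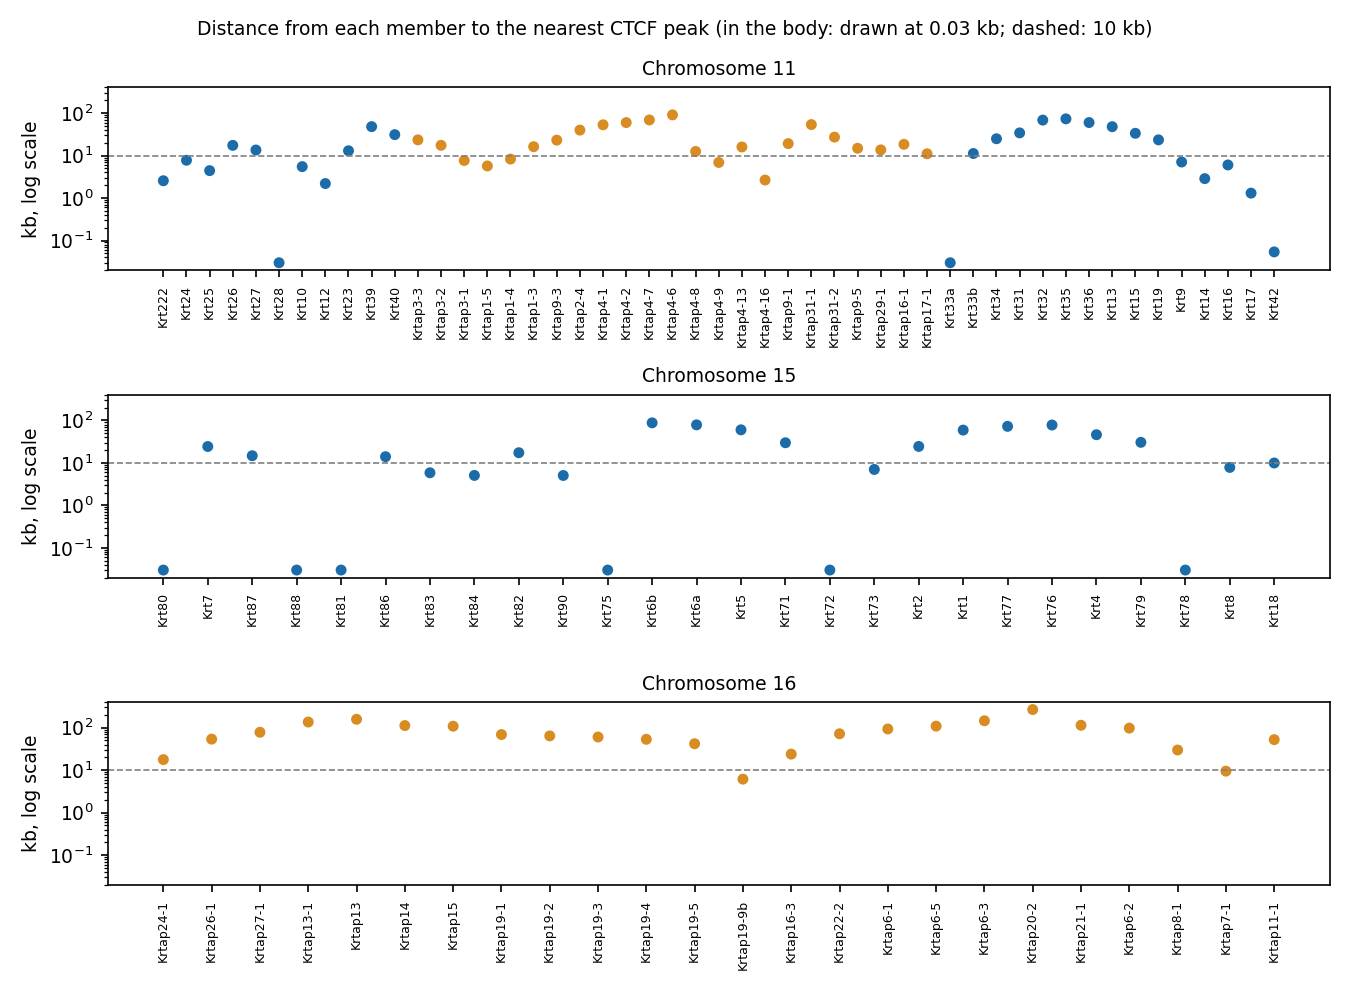
Each point is a member in chromosome order (blue Krt, orange Krtap) and the y axis, on a log scale, gives the distance in kb from the gene to the nearest peak midpoint; genes with a peak in the body are drawn at 0.03 kb and the dashed line marks 10 kb. Distances reach 90.8 kb at Krtap4-6, 87.6 kb at Krt6b and 267 kb at Krtap20-2.

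Krt78, a type II keratin, had the most peaks of any member, all 6 within its annotated body (101946001 to 101996624, 50624 bp). That gene model is long for this family. From the start that RefSeq gives in its promoter table, 101954287 on the minus strand, the peaks lay 16.5 to 34.6 kb upstream, between Krt78 and Krt8. They formed 3 pairs, at 101970599 to 101974115, 101983352 to 101984656 and 101988153 to 101989018, with widths of 229 to 802 bp. All lay more than 10 kb from that start, so with its body ended there Krt78 would have no peak in its window. The counts of members given here use the annotated body. Without Krt78 the mean over the other 107 members was 0.458 peaks per gene, and without its span the chromosome 15 cluster stood at 0.378 of its sides (exact binomial 95% interval 0.182 to 0.708). Both were computed after seeing the data.

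Next to this group lie Krt8 and Krt18, the pair of simple epithelia and of the early embryo, which are neighbours in opposite directions. Krt8 had 2 peaks in its window, both counted for Krt78 as well, the nearer 7.82 kb away. Krt18 had 1, a peak of 262 bp at 102018149 to 102018410 that lay between the genes, 13937 bp upstream of the start of Krt8 and 9937 bp upstream of that of Krt18. Neither gene had a peak in its body.

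Krt28, a type I keratin of the inner root sheath, had 4 peaks, the most on chromosome 11. Of these, 2 lay in its body (99366923 to 99367119 and 99369283 to 99369629), 1 of 337 bp lay 366 bp from its lower-coordinate end, and 1 lay 4.86 kb beyond the other end, between Krt28 and Krt10. Since Krt28 is on the minus strand, its lower-coordinate end is the downstream one. Krt33a, a hair keratin at the change from keratin-associated to hair keratin genes, had 3 peaks: 2 at 100004859 to 100006932 outside it and 1 of 222 bp in its body. Krt80, the keratin at the first border of the chromosome 15 cluster, had 3, of which 1 (240 bp at 101369694 to 101369933) lay at its higher-coordinate end.

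Of the pairs that work together, 3 differed widely in their distances. Krt14, the type I chain of basal keratinocytes, had 1 peak 2.87 kb away, while its partner Krt5 had none within 10 kb and lay 60.0 kb from the nearest. For the suprabasal pair, Krt10 had 1 peak at 5.49 kb and Krt1 lay 59.1 kb from one. For the wound and nail pair, Krt16 had 1 peak at 6.01 kb and Krt6a lay 78.6 kb away. In these 3 pairs the type I gene was nearer, and each type II gene lay in one of the 184 kb gaps, so the pairs do not count as separate cases. For the simple epithelial genes Krt7 and Krt19 the distances were 24.3 and 23.4 kb, with no peak in either window. For Krt8 and Krt18 they were 7.82 and 9.94 kb, with the type I gene Krt18 the farther.

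Peaks at the very ends of members were few. A peak lay within 1 kb of an end at 6 of 108 members (5.56%), beside 27.1% of neighbouring genes and 12.0% of all protein-coding genes. The 6 were Krt28, Krt42, Krt72, Krt80, Krt81 and Krt88, all keratins, 4 of them on chromosome 15. They made up 11.5% of the keratin genes, near the 12.0% of all protein-coding genes, while no keratin-associated gene had such a peak. At Krt42 the peak (195 bp at 100262731 to 100262925) lay 54 bp outside the lower-coordinate end, the downstream end of this minus-strand gene, and also counted for Krt17. The hair keratin Krt81 and its neighbour Krt88 shared both of their peaks, 1 in the body of each, at 101459353 to 101459639 and 101453346 to 101453719. Krt75, of the companion layer of the hair follicle, had a peak in its body away from the ends. A body peak was found at 8 of 108 members, beside 65 of 144 neighbouring genes and 6420 of 21779 protein-coding genes. All 8 were keratins, whose median length is 7.0 kb against 0.833 kb for the keratin-associated genes.

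Of the 42 peaks inside the 3 large clusters, 14 lay in the body of a member, 8 in that of another annotated gene and 20 outside genes. On chromosome 11, 14 of 23 lay outside genes and 3 in a member, while on chromosome 15, 11 of 17 lay in a member. Of those 11, 6 were the Krt78 peaks, which lie upstream of its start in the promoter table; without them 5 of 17 on chromosome 15, and 8 of the 42, lay in the body of a member, a count added after seeing the data. A single peak could be counted for several genes: 11 lay within 10 kb of more than 1 member, and 2 of them, at 99574075 to 99574488 and 100254811 to 100255007, within 10 kb of 3. The first of these was counted for Krtap3-1, Krtap1-5 and Krtap1-4, and the second for Krt16, Krt17 and Krt42. There were 8 peaks more than 10 kb from any member, among them the widest peak inside the chromosome 11 cluster, 670 bp at 100169029 to 100169698 in a long non-coding gene between Krt19 and Krt9. Peaks inside the 3 clusters had a median width of 261 bp (quartiles 217.75 and 317 bp), against 300 bp (247.25 and 406 bp) for the 222 peaks within 1 Mb of them and 262 bp for all peaks.

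The gaps between peaks that crossed the borders were of ordinary length on chromosome 11, at 19.1 and 19.5 kb beside a median of 16.9 kb over the chromosome. On chromosome 15 they were 27.9 kb at the first border and 47.6 kb at the far one, beside a median of 23.2 kb. Krt222, at the first border on chromosome 11, had 2 peaks, 2.56 kb outside the cluster and 5.13 kb beyond its other end, and the next gene out, Smarce1, a chromatin remodelling subunit, lay 1.74 kb away with 3. Among peaks of 262 bp or wider, the windows of Krt222 and Krt42 held none, and the nearest to the first border lay 25.5 kb outside and 78.3 kb inside. Beyond Krt42 at the other border, 7 peaks fell within 50 kb, all in the 18.1 kb that begin with a peak of 1240 bp at 100281701 to 100282940, before the translation factor gene Eif1, which had 1. The last 100 kb inside that border held 3 peaks and the first 100 kb outside it 11. At the first border 5 lay in the 100 kb inside and 6 in the 100 kb outside.

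On chromosome 15 the nearest peak before Krt80 lay 6.37 kb outside, and the 200 kb before the border held 22 peaks with a median width of 379.5 bp, against 6 in the first 200 kb inside it. Smim41 was the first gene out, with 3 peaks. After Krt18 the nearest lay 33.8 kb outside, near Eif4b, another translation factor gene, with 3 peaks. Within 100 kb of that border 7 lay inside, 6 of them the group at Krt78, and 6 outside.

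On chromosome 16 a peak of 192 bp lay 17.7 kb before Krtap24-1, on the side of the claudin gene Cldn8, which had none. On the far side no peak was found within 200 kb, and the first lay 203 kb beyond Krtap11-1. The first gene out was Tiam1, a Rac activator gene, 216 kb beyond the border. Tiam1 had 4 peaks, and that first peak was outside its window. The 2 peaks inside, of 217 and 193 bp, lay 6.15 kb from Krtap19-9b and 9.5 kb from Krtap7-1. On chromosome 7 the 5 Krtap5 genes (142174532 to 142304503) had 4 peaks in their span, 3.08 per 100 kb (0.839 to 7.88), beside 2.2 and 2.4 in the 1 Mb on either side, where 63.6% of 55 genes had a peak. The one of 265 bp, at 142293903 to 142294167, was counted for both Krtap5-1 and Krtap5-4. Outside the clusters Krtap28-13 on chromosome 1 had a peak at 3.07 kb and Krtap12-1 on chromosome 10 one at 8.18 kb, while Krtap10-4 and Krtap10-10 had none.

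Other genes of filaments, of cornification and of keratin gene control were counted in the same way, beside the 50.8% of all protein-coding genes with a peak. Of 16 other intermediate filament genes, 12 had a peak, with 5 at Prph, the filament of peripheral neurons, and 4 each at the lamin genes Lmna and Lmnb1. Vim, the vimentin filament of fibroblasts, had 1, in its body. Of 27 cornification genes, which build the envelope and junctions of dead keratinocytes, 11 (40.7%, below but near the share of all genes) had one, led by Evpl, Jup and Ppl, which encode envoplakin, plakoglobin and periplakin, with 4 each. Jup lies within 1 Mb of the chromosome 11 cluster and is also among its neighbouring genes. Among the 16 cornification genes without a peak were Flg, Lor and Ivl, which encode filaggrin, loricrin and involucrin, at 66.6, 29.4 and 28.6 kb. Like most of the 16, they lie on chromosome 3, so the 16 may not count as separate cases. Of 14 regulators of keratin genes, 6 (42.9%, likewise near that share) had a peak, with 3 each at Foxn1, Lef1 and Ovol1, while Trp63 and Hoxc13 had none.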

How the data were processed

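Peak positions came from 1 list that the authors deposited for the whole series, with both conditions merged. Its 3 columns give chromosome, start and end without a header, score or sample name, so nothing in it is normalised. Per the submitters' processing notes, STAR, Picard and MACS2 and the builds mm10 and dm6 were used, without versions or roles. For the peak threshold, the merging and the use of the Drosophila spike-in, the sources used here give nothing. Depth per library is unknown. Starts were moved to counting from 1, and 22755 peaks on chromosomes 1 to 19, X and Y were kept.

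Genes came from RefSeq for GRCm38.p6, without those placed below 3 Mb on chromosomes other than Y. Strand came from the RefSeq promoter table where it lists a gene. Distances run from a peak's midpoint to the gene. The counting step was tested on simulated data. No test against other genes was made. The members and lists were chosen with earlier results of these data known.

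Named genes were the 10 members with most peaks (ties by symbol), those bound within 1 kb of either end, the outermost members of each cluster and the first gene beyond, 5 keratin pairs, and up to 3 genes from each of 3 lists. Vim, Flg, Lor, Ivl, Trp63, Hoxc13, Krt33b and the remaining members named for a gap, a class, a promoter or a distance were named after their values were seen. Work was done in Python 3.11.15 with pandas 2.3.3, numpy 2.4.6, scipy 1.17.1 and matplotlib 3.10.9.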

Additional observations from a re-analysis of the deposited data

How the results depend on the processing

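The window set the counts most. In the gene body alone 8 members had a peak (0.13 per gene), within 5 kb 18 (0.269) and within 20 kb 53 (0.954), against 36 (0.509) within 10 kb. With only peaks of 262 bp (the median width) or wider, 21 members had one (0.278 per gene), the chromosome 16 cluster held none (ratio to its sides 0.0) and its longest gap became 1231 kb. That limit also moved the counts of 17 of the 36 members by over 1.5 times, among them Krt222 (2 to 0), Krt42 (2 to 0) and Krt33a (3 to 1). The remaining settings for these counts gave 35 or 36 members, and genes of 10 kb or shorter gave 29. Within 2.5 kb of an end 10 members had a peak, and AGGTGGC raised the promoter matches to 10. A body peak was found at 65 of 144 neighbouring genes and 6420 of 21779 protein-coding genes. For the other changed windows, peak sets and end distances only members were recounted, so the contrast with other genes was not examined there. Ratios of cluster to sides ranged from 0.268 to 0.411 on chromosome 11 and from 0.378 to 0.626 on chromosome 15. With 2 Mb on each side, the chromosome 15 interval reached 1.03. No paired analysis was possible because the 1 list of positions carries no sample, replicate number or condition, and no library could be left out for the same reason.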
